A study of Arabidopsis thaliana with 16 samples.

Results

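The response of Arabidopsis thaliana roots to zinc (Zn) deficiency was examined on 4 of the 16 one-colour Affymetrix ATH1 arrays of the study, 2 from roots of Zn-deficient wild-type plants and 2 from roots of wild-type control plants. Plants of both groups grew in hydroponic culture to an age of 7 weeks, with the first 4 weeks in control medium for all and the last 3 weeks in either Zn-deficient or control medium. The arrays were chosen by their titles alone, and all 22746 probe sets that are not array controls were considered, of which 17059 had enough signal to be tested. Shoots of the same experiment (2 arrays each for Zn-deficient and control plants) and roots of a second experiment (2 arrays each for hma2 hma4 and wild type) are used only where the root response is set against them. That second experiment used 21-day-old seedlings on agar with control medium, moved to fresh plates at 7 days and kept there for 14 days. The double mutant hma2 hma4 lacks both P-type ATPases that pump Zn into the root xylem. No label states the ecotype or how many plants stand behind an array, so p-values measure the spread between these arrays, which may be technical.

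Plants take up Zn mainly through membrane transporters of the ZIP family, and in Arabidopsis the transcription factors bZIP19 and bZIP23 are known to sense low Zn in the cell and to switch on ZIP genes and nicotianamine synthase genes. Inside the root, Zn moves from cell to cell towards the vascular cylinder, with HMA2 and HMA4 loading it into the xylem and proteins of the MTP family moving it into compartments of the cell. The comparison of Zn-deficient with control roots asks which transcripts of the organ that takes up Zn respond when the supply from the medium is withdrawn.

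The 4 arrays carried root RNA by their marker genes. The root-hair expansins EXPA7 and EXPA18 had signals from 331.8 to 869.3 and from 437.8 to 944.8 on the 4 root arrays, against at most 87.2 and 131.4 on the 4 shoot arrays. The root beta-glucosidase PYK10 had signals from 4476 to 6519 in roots. The 5 photosynthesis genes with a probe set of their own, PRK, RCA, SBPASE, PSAE1 and LHCB4.1, summed to 594.2 and 426.5 signal units in Zn-deficient roots and to 379.9 and 605.3 in control roots, against at least 63394 on any shoot array. Their sum overlapped between the root groups and lay far below that of any shoot array. After the scaling by the authors the median signals of the root arrays lay between 195.2 and 209.3, and actin control probe sets gave 3'/5' ratios between 1.36 and 1.44. The Zn-deficient replicates were less alike than the controls: across probe sets, log2 signals correlated with r = 0.9509 between the Zn-deficient arrays and r = 0.9761 between the control arrays, and 1039 and 500 probe sets differed at least 2-fold within the pair. All 4 pairs of a Zn-deficient with a control array correlated more closely than the Zn-deficient arrays did with each other, at r = 0.9522, 0.9615, 0.9688 and 0.9701. Because RNA of whole roots was measured, more cells of a type and more RNA per cell cannot be told apart.

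A small set of root transcripts was higher under Zn deficiency, by large factors. With limma, 18 of the 17059 probe sets tested passed an adjusted p of 0.05, all of them higher in Zn-deficient roots (0.106% of those tested), and 0 were lower. For 14 of them the rises ran from 6.90-fold to 60.9-fold, the other 4 lay below background on both control arrays and were higher by at least 9.39-fold to at least 50.2-fold, and in all 18 the Zn-deficient arrays lay above the control arrays without overlap. Non-overlap alone is common with 2 arrays a group: it occurred upwards in 17.6% and downwards in 15.1% of all probe sets tested. At an unadjusted p under 0.05 there were 394 (2.31%), 257 higher (1.51%) and 137 lower (0.803%). The named genes among the 18 were MTP2, AT1G12030, AT1G20380 and ZIP9. Of the other 14, 13 are not listed in the platform annotation used here and 1 is paired with several genes, and these are given by probe set. The count depended on both Zn-deficient arrays. It rose without replicate 2, with lower probe sets then among those that passed, and fell without replicate 1. In 16 of the 18, Zn-deficient replicate 1 lay above replicate 2. With all 16 arrays in 1 fit the count was 33, with 30 higher and 3 lower.

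**Figure D1:**
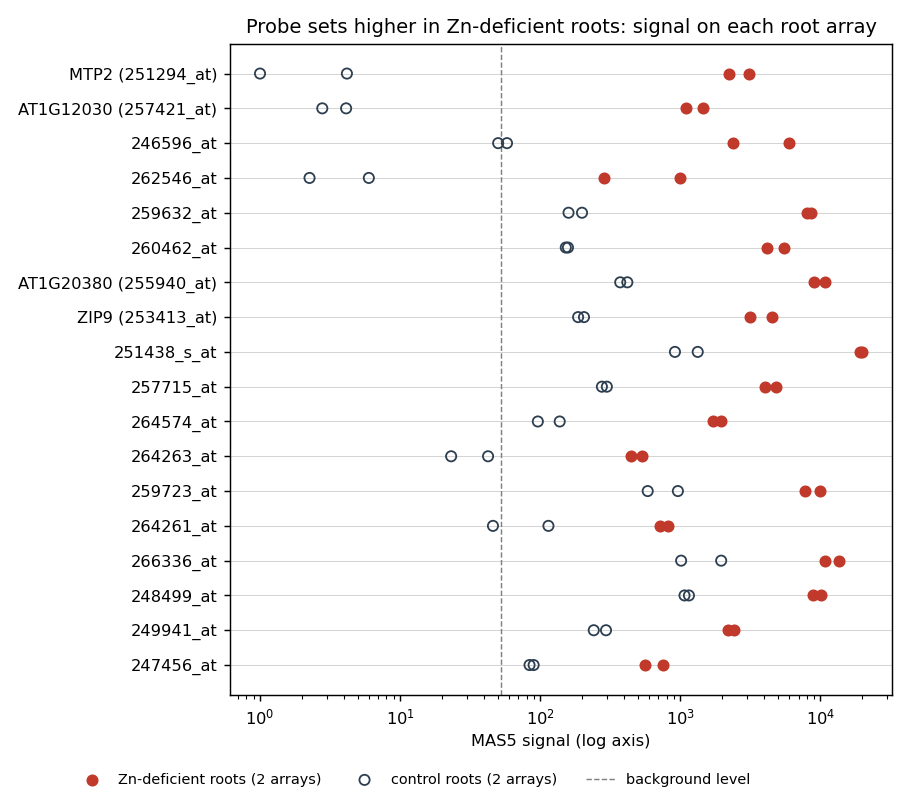
Signal of each of the 18 probe sets past the threshold on the 2 Zn-deficient (filled) and the 2 control root arrays (open), on a log axis, ordered by log2 change. The dashed line is the background level of 52.2 signal units, and every filled point lies to the right of both open points of its row.

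Among the Zn transport genes, MTP2, a metal transporter of the cation diffusion facilitator family located in the endoplasmic reticulum, gave the largest change. Its signals were 3099 and 2217 on the Zn-deficient arrays, against 4.17 and 1.00 on the control arrays, the second of these being the lowest value the table holds. The control signals therefore lay below the background level of 52.2, the highest signal of 3 bacterial control probe sets on any array, and MTP2 was at least 50.2-fold higher in Zn-deficient roots. The log2 change of log2(signal + 8), the scale used for all changes given here, was 7.97 (SE 0.352, limma adjusted p = 6.35e-05). With control transcripts at background, the size of this fitted change follows the 8 units added.

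ZIP9, a ZIP family transporter and a known target of bZIP19 and bZIP23, had signals of 4512 and 3135 in Zn-deficient roots, against 186.8 and 205.7 in control roots. Unlike MTP2 it was measured above background in control roots. Its rise was 18.5-fold, a log2 change of 4.21 with a 95% interval from 3.56 to 4.86 (limma adjusted p = 0.00048). In the list of core Zn deficiency genes only ZIP9 has a named probe set, so the other ZIP and nicotianamine synthase genes of that list were not analysed here by name.

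AT1G12030 was also below background in control roots. Its signals were 1465 and 1094 in Zn-deficient roots, against 2.78 and 4.12 in control roots, at least 24.2-fold higher (limma adjusted p = 6.35e-05). AT1G20380, a prolyl oligopeptidase family gene, reached 10876 and 8967 in Zn-deficient roots, against 419.6 and 373.3 in control roots. That is a rise of 24.5-fold (log2 change 4.61 with SE 0.258, limma adjusted p = 0.00016). The next gene on chromosome 1 in the RefSeq table, the pseudogene AT1G20390, had signals of 299.6 and 189.4 in Zn-deficient roots, against 34.3 and 37.0 in control roots. With its control arrays below background it was at least 4.56-fold higher, which did not pass (limma adjusted p = 0.062), although it passed with all 16 arrays in 1 fit, with a larger constant added and without an intensity trend. No gene lies between these neighbours in that table, and what relates their signals was not tested.

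Probe set 251438_s_at, which the annotation pairs with several genes, rose to 19993 and 19163 in Zn-deficient roots, against 918.0 and 1335 in control roots. Its rise was 17.6-fold, and its Zn-deficient replicates differed by a smaller factor than its control replicates. A further 4 unnamed probe sets rose from a level above background in controls. Probe set 259632_at had 8070 and 8552 in Zn-deficient roots, against 199.2 and 159.6 in control roots, and 260462_at had 5522 and 4200, against 158.1 and 152.5. Probe set 257715_at had 4038 and 4850 in Zn-deficient roots, against 299.6 and 276.2 in control roots, and 264574_at had 1953 and 1729, against 96.3 and 138.0. The log2 changes were 5.48, 4.88, 3.91 and 3.90 in that order, with limma adjusted p of 0.00018, 6.35e-05, 0.00159 and 0.00101.

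Others were already bright in control roots and rose further. Probe set 266336_at had signals of 13597 and 10795 in Zn-deficient roots, against 1016 and 1963 in control roots, an 8.53-fold rise. Probe set 248499_at had 10115 and 8859 in Zn-deficient roots, against 1155 and 1074 in control roots, an 8.44-fold rise with the lowest standard error of the 18 (0.235). Probe set 259723_at reached 9999 and 7787 in Zn-deficient roots, against 586.6 and 963.4 in control roots, an 11.6-fold rise. In each of these 3 both Zn-deficient arrays lay above both control arrays by a wide margin. Smaller signals were those of 249941_at (2411 and 2179 in Zn-deficient roots, against 295.5 and 241.6 in control roots), 264261_at (823.9 and 719.1, against 114.7 and 46.1) and 247456_at (748.1 and 558.7, against 89.9 and 84.0). The limma adjusted p of these 6 probe sets ran from 0.000975 for 248499_at to 0.0345 for 264261_at.

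A further 3 of the 18 were at or near background in control roots and reached unequal or low levels under deficiency. Probe set 246596_at had signals of 5941 and 2387 in Zn-deficient roots, against 50.2 and 58.0 in control roots, a 60.9-fold rise. Probe set 262546_at had 1001 and 287.8 in Zn-deficient roots, against 2.26 and 5.98 in control roots, at least 10.3-fold higher. Probe set 264263_at had 537.9 and 447.6 in Zn-deficient roots, against 23.2 and 42.5 in control roots, at least 9.39-fold higher. The gap between the Zn-deficient arrays of 262546_at, 3.48-fold, was the widest among the 18. On the other 12 arrays of the study, shoots and mutant included, 262546_at stayed between 2.53 and 5.26, so its signal was above background on the Zn-deficient root arrays alone.

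Of the 18 calls, 11 held under all settings tried, among them the removal of any single root array. The other 7 did not: 247456_at, 249941_at, 259723_at, 262546_at, 264261_at, 264263_at and 266336_at each lost the call in at least 1 setting. The least stable was 264261_at, which passed in 6 of 18 settings, and 262546_at passed in 9 of 16. The direction of all 18 was the same in every setting.

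**Figure D2:**
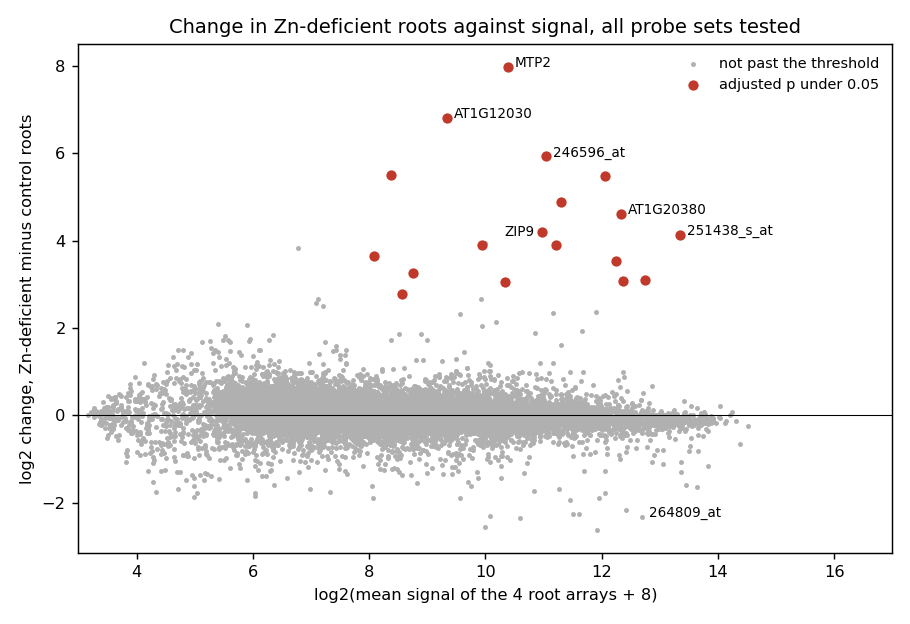
Log2 change between Zn-deficient and control roots (vertical axis) against the log2 mean signal of the 4 root arrays plus 8 (horizontal axis) for the 17059 probe sets tested, with the 18 past the threshold in red. The red points, of which 6 are labelled, span dim and bright probe sets and all lie at 2.79 or higher, and the labelled grey point 264809_at at -2.32 did not pass.

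The median log2 change of all probe sets was 0.02, and 90% of them lay between -0.44 and 0.53. Rises of at least 1 on the log2 scale were seen for 141 probe sets (0.827%) and falls of that size for 127 (0.744%). The median standard error was 0.322, with the spread estimated over all 8 arrays of the experiment. Shoot replicates scattered more than root replicates: the SD of replicate differences was 0.578 in Zn-deficient roots and 0.411 in control roots, against 0.725 in Zn-deficient shoots and 0.652 in control shoots. A fit of the 4 root arrays alone gave a median standard error of 0.216 and 19 calls, 18 higher and 1 lower, of which 15 were among the 18.

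Another 4 probe sets had an adjusted p between 0.05 and 0.1. Besides AT1G20390 these were AT4G37240 (0.0785) and the unnamed 259161_at (0.0643) and 264809_at (0.0745), the unnamed pair being picked out after their values were seen. Probe set 264809_at was the only one of the 4 to be lower: 2485 and 1911 in Zn-deficient roots, against 12177 and 9757 in control roots, or -2.32 on the log2 scale (95% interval -3.09 to -1.54). It passed with the 4 root arrays alone, with all 16 arrays, with the higher constant, with the stricter filter and with a replicate block, but with none of the 4 root arrays left out. In shoots of the same experiment it fell by 2.20 (limma adjusted p = 0.0377). AT4G37240 had signals of 949.5 and 2452 in Zn-deficient roots, against 236.6 and 230.9 in control roots.

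Among named genes with an unadjusted p under 0.05, arrays that did not overlap and a signal above the median, 71 were higher and 39 lower, and the 14 with the largest change each way are described here. Of the 14 higher, the 4 named above passed. The other 10 did not pass. Of these, 3 were below background on both control arrays, so that only a bound was measured: AT3G04450 was at least 4.08-fold higher, AT4G18650 at least 4.29-fold and AT1G20390 at least 4.56-fold. The log2 changes of the others were those of AT4G37240 (2.67), AT4G04990 (2.32), AT2G20950 (2.14), AT2G45920 (2.04), AT5G14540 (1.89), AT5G11460 (1.67) and AT5G60680 (1.62). AT2G20950 had 1791 and 1979 in Zn-deficient roots, against 392.6 and 451.9 in control roots (limma adjusted p = 0.243). It passed in the fit of the root arrays alone. AT2G45920, which encodes a U-box protein, a class of ubiquitin ligase, had 1573 and 1556 in Zn-deficient roots, against 500.1 and 279.7 in control roots. AT5G14540 had 3019 and 2790, against 669.8 and 896.7.

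Of the 14 lower named genes, 0 passed, and their log2 changes ran from -1.76 to -1.02. The largest was that of AT4G01390, whose Zn-deficient arrays disagreed, at 16.8 and 165.1 against 224.3 and 204.5 in control roots. AT1G70880, of the family of Bet v 1-like proteins, had 761.8 and 902.7 in Zn-deficient roots, against 2530 and 3043 in control roots (log2 change -1.73, limma adjusted p = 0.903), and passed only with the higher constant. AT2G43590, of the chitinase family, had 346.9 and 416.9 in Zn-deficient roots, against 904.9 and 1042 in control roots. PR-1-LIKE, related to the pathogenesis-related protein PR1, had 149.7 and 267.5, against 484.8 and 528.0. AT3G07720, a kelch-repeat protein gene, had 1651 and 2110 in Zn-deficient roots, against 6209 and 3283 in control roots. AT5G64120, a class III peroxidase gene, had 115.2 and 272.4, against 376.7 and 364.2, and AT1G26240, an extensin-like protein gene of the cell wall, had 587.8 and 1290, against 1721 and 1838. AT5G60840 (-1.35), AT5G14330 (-1.23), AT4G22610 (-1.22), AT1G67865 (-1.19), AT5G15610 (-1.18), AT1G73120 (-1.13) and AT3G50900 (-1.10) completed the group.

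Gene lists for metals, nutrients, stress, hormones and root cell types named 296 loci, of which 46 had a probe set of their own and 42 were tested. Over all of them 2 genes passed, ZIP9 and MTP2, both higher, against 0.106% of all probe sets. Lists and members were chosen with earlier results of these data known, so this comparison cannot show enrichment of the listed genes. In 14 of the 33 lists no gene had such a probe set, and they are not described.

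The Zn sensor and the other Zn transporters tested did not pass. bZIP19, the Zn sensor, had signals of 1865 and 1547 in Zn-deficient roots, against 1792 and 1911 in control roots, and its log2 change was -0.12 with a 95% interval from -0.75 to 0.50. bZIP24, a related factor known for salt responses, had a log2 change of -0.40. ZIP6, a ZIP transporter outside the core list, had 574.9 and 543.5 in Zn-deficient roots, against 605.9 and 577.1 in control roots (log2 change -0.08, 95% interval -0.76 to 0.60). MTP12, a partner of MTP5 in a Zn transport complex of the Golgi, had 262.5 and 240.5 in Zn-deficient roots, against 315.0 and 288.4 in control roots (-0.26, 95% interval -0.83 to 0.32). The change of ZIP9 lies above all 3 of these intervals.

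Iron genes were listed because several Zn transporters also carry iron. Of 4 tested members of the iron deficiency list 0 passed, with 2 changes above and 2 below zero. IMA1, a small peptide that raises iron uptake, had signals of 173.5 and 201.0 in Zn-deficient roots, against 83.3 and 99.0 in control roots, with no overlap. Its log2 change of 0.98 had an unadjusted limma p of 0.028, where 1.51% of all probe sets were under 0.05 in this direction, and an adjusted p of 1. The ubiquitin ligases BTSL1 (-0.30) and BTSL2 (-0.34), which limit iron uptake, and the regulator PYE (0.33) did not pass. The 4 coumarin genes were all below zero, with a median of -0.30 against 0.02 for all probe sets, and 0 passed. The largest change was that of S8H, an enzyme that makes the iron-mobilising coumarin fraxetin, with 577.2 and 667.3 in Zn-deficient roots, against 1393 and 845.8 in control roots (-0.80). BGLU42 (-0.35), F6'H1 (-0.25) and COSY (-0.14) were the others.

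**Figure D3:**
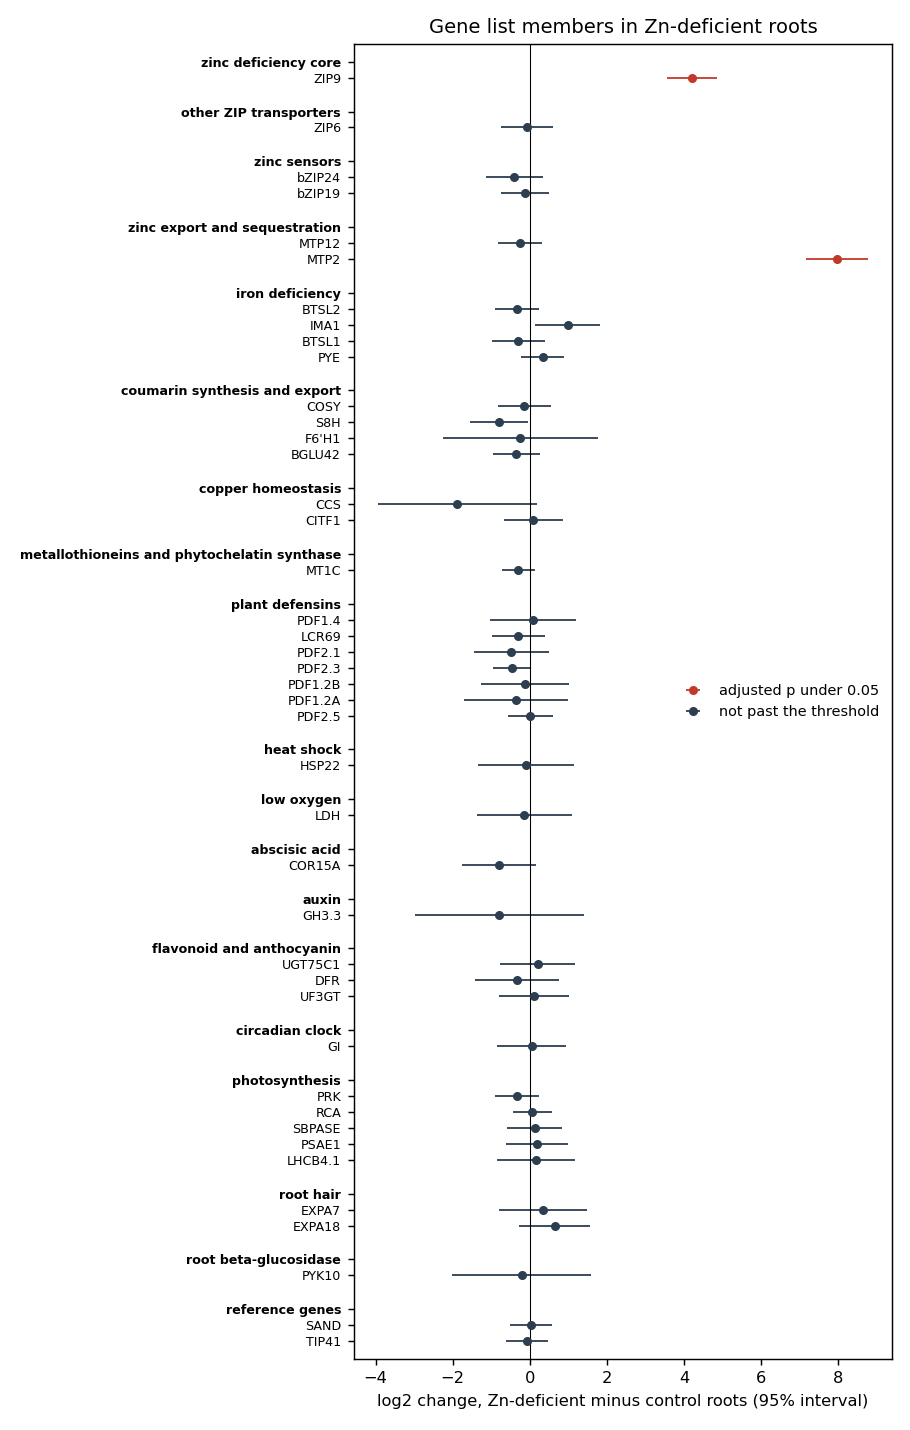
Log2 change between Zn-deficient and control roots for each gene list member tested, grouped by list, with 95% intervals from the limma fit. ZIP9 and MTP2 (red) stand at 4.21 and 7.97, and the other members lie between -1.88 and 0.98.

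CCS, the chaperone that delivers copper to the copper-zinc superoxide dismutases, had the lowest value on any list. Its signals were 507.6 and 182.2 in Zn-deficient roots, against 1318 and 993.9 in control roots. The log2 change of -1.88 had a standard error of 0.903 and did not pass (limma adjusted p = 1). That standard error is shared with the shoot arrays, where the controls of CCS had 2693 and 268.4. The change in shoots was -1.87, which did not pass either (limma adjusted p = 0.343). CITF1, a regulator of copper uptake, had a change of 0.09. The metallothionein MT1C was abundant in both groups, at 10488 and 12554 in Zn-deficient roots, against 13228 and 15040 in control roots (-0.30).

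Of 7 tested plant defensins, small cysteine-rich proteins, 0 passed and 5 were below zero, with a median of -0.31. Over all 17059 probe sets 8074 were below zero, with a median of 0.02. Among the 5, PDF1.2A lay below background in both groups, and PDF1.2B overlapped between the groups at signals close to background. PDF2.3 had 4712 and 3880 in Zn-deficient roots, against 5973 and 5861 in control roots (-0.47, unadjusted p = 0.0532). LCR69, a defensin also called PDF2.2 (-0.31), and PDF2.1 (-0.48) overlapped between the groups. Root hair genes did not pass either: EXPA18 had 944.8 and 660.1 in Zn-deficient roots, against 437.8 and 579.1 in control roots (0.64), while the arrays of EXPA7 overlapped (0.34). PYK10 had a change of -0.22, and of the photosynthesis genes RCA (0.06), SBPASE (0.13) and LHCB4.1 (0.16) overlapped, while PRK and PSAE1 lay below background in both groups. LDH, a gene of anaerobic metabolism, had 1808 and 5352 in Zn-deficient roots, against 3514 and 3348 in control roots, so its Zn-deficient replicates fell on either side of the controls. COR15A and UGT75C1 lay below background in both groups. HSP22 (-0.09), GH3.3 (-0.79), DFR (-0.33), UF3GT (0.10), GI (0.04) and the reference genes SAND (0.03) and TIP41 (-0.07) did not pass.

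Gene families, grouped by the leading letters of their RefSeq symbols and holding at least 6 probe sets tested, were another way to read the root transcriptome. In 32 families 0 members passed, against 0.106% of all probe sets tested and 0.0423% of those with 1 gene. With shares so low, 0 calls says little about these families, and neither ZIP9 nor MTP2 belongs to one of them. Family medians lay between -0.22 and 0.25. The lowest median was that of the RALF-like signal peptides, with 5 of 7 below zero, followed by the XTH enzymes of cell wall xyloglucan (-0.21). The highest was that of the genes whose symbols begin with CYP, with 11 of 16 above zero. This group includes cytochrome P450 genes, but it was set by the letters alone, so not every member need be a P450 gene. The extremes of the group, CYP71B5 (-1.47) and CYP71B28 (0.97), ran opposite ways. All 9 probe sets for the nad genes, subunits of mitochondrial complex I, were above zero with a median of 0.19, and 4 of the 9 belong to nad1. The 68 plastid-encoded probe sets had a median of 0.09, with 50 above zero. Over all 17059 probe sets 8984 were above zero. The sugar transporters of the SWEET family had a median of 0.08 and one member, SWEET11, at 1.03 (unadjusted p = 0.0385).

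Most of the 18 root transcripts also responded in shoots of the same experiment. In shoots 131 probe sets passed upwards (0.768% of those tested) and 26 downwards (0.152%), and 14 of the 18 were among those that rose, with 4 not past the threshold there. The difference between the root and the shoot response was tested as an interaction, which 2 probe sets passed (0.0117%), both among the 18 and both with a larger rise in roots, while 1514 had an unadjusted p under 0.05 (8.88%).

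MTP2 was one of the 2. Its shoot signals were 60.3 and 84.6 under deficiency, against 22.5 and 16.3 in controls, and its fitted log2 change was larger in roots by 6.43 (95% interval 5.30 to 7.56, limma adjusted p = 0.00486). The control arrays of MTP2 lay below background in both organs, so this difference and its interval follow the 8 units added and are no measured size. The other was 246596_at, which behaved in opposite ways in the organs: beside its rise in roots, shoot signals were 5390 and 3528 under deficiency, against 16966 and 15142 in controls, or -1.88 on the log2 scale, short of the threshold (limma adjusted p = 0.0729). The difference was 7.80 (95% interval 6.50 to 9.10, limma adjusted p = 0.00486). The root control arrays of 246596_at, at 50.2 and 58.0, lay close to the background level of 52.2, so the size of this difference is uncertain. Without either Zn-deficient shoot array 0 probe sets passed the interaction, without control shoot replicate 2 it was 16, and without Zn-deficient root replicate 2 it was 4.

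Of the 18, 9 had the larger fitted log2 change in roots and 9 in shoots. That split counts MTP2, 262546_at, AT1G12030 and 264263_at, whose control arrays lay below background in both organs. It also counts 264261_at, whose difference was 0.08 (SE 0.598). The differences of 259632_at (3.34, limma adjusted p = 0.122), 249941_at (2.48, 0.219) and 257715_at (1.74, 0.349) were above zero and did not pass. Probe set 262546_at, below background in control roots and on every shoot array, has no measured difference, and its fit did not pass either (limma adjusted p = 0.147). Probe set 249941_at was already bright in control shoots (3179 and 3731), at a level above its Zn-deficient roots. On the other side, 264574_at had a root minus shoot difference of -2.16 (95% interval -3.14 to -1.18, limma adjusted p = 0.234), below the threshold for a call. ZIP9 and AT1G20380 had differences of -0.80 and -0.40, with 95% intervals of -1.72 to 0.11 and -1.23 to 0.43. AT1G12030 was below background on the control arrays of both organs, so the size of its difference was not measured.

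**Figure D4:**
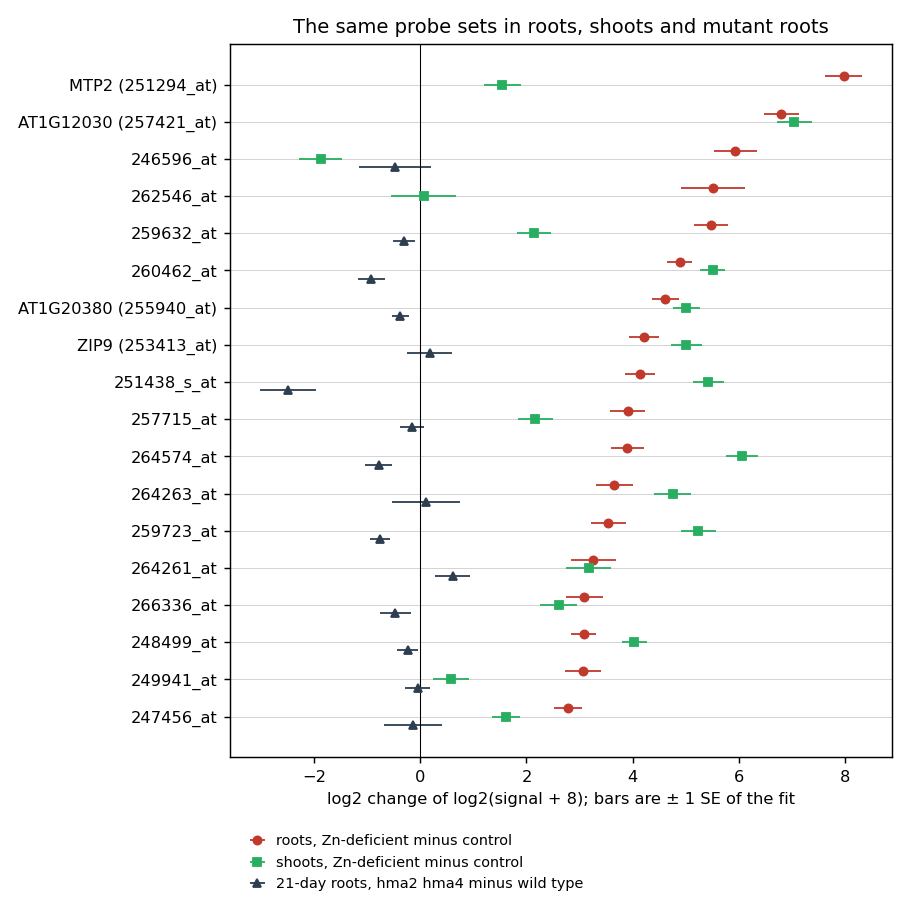
Log2 change of the 18 probe sets in Zn-deficient against control roots (circles), Zn-deficient against control shoots (squares) and hma2 hma4 against wild-type roots at 21 days (triangles, 15 of the 18 tested), with bars of 1 SE. The circle lies to the right of the square in 9 rows and to the left in 9, the widest fitted gaps are those of 246596_at and MTP2 (the MTP2 controls being below background), and no triangle lies above 0.61.

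Because 246596_at is a leaf-abundant transcript that appeared in Zn-deficient roots, other leaf transcripts were looked at in the same arrays, a step added after its values were seen. The 126 tested probe sets with a mean above 1000 in wild-type shoots and below 60 in wild-type roots at 21 days, a choice that used no array of the 7-week experiment, had a median log2 change of 0.08 in Zn-deficient roots, and 90% of them lay between -0.84 and 1.08. Of the 126, 9 were higher and 5 lower at an unadjusted limma p under 0.05, against 1.51% and 0.803% of all probe sets tested. The 9 include 246596_at itself, whose values prompted this step, so its rise adds nothing new to the count. Changes of at least 1 on the log2 scale were 8 rises and 5 falls, against 0.827% and 0.744% of all. What lies behind these counts was not tested. The highest fitted changes were those of 246596_at and 259161_at. The signals of 259161_at were 314.5 and 81.4 in Zn-deficient roots, against 1.83 and 6.38 in control roots, which is at least 3.06-fold higher (limma adjusted p = 0.0643, not past the threshold). With its controls below background, its fitted 3.84 is no measured size and its place in the order is not settled. In shoots 259161_at had 5793 and 3596 under deficiency, against 23216 and 17135 in controls. The summed photosynthesis signal given above overlapped between the root groups, but PRK and PSAE1 in that sum lay below background. Whether shoot material reached the root arrays was not tested.

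**Figure D5:**
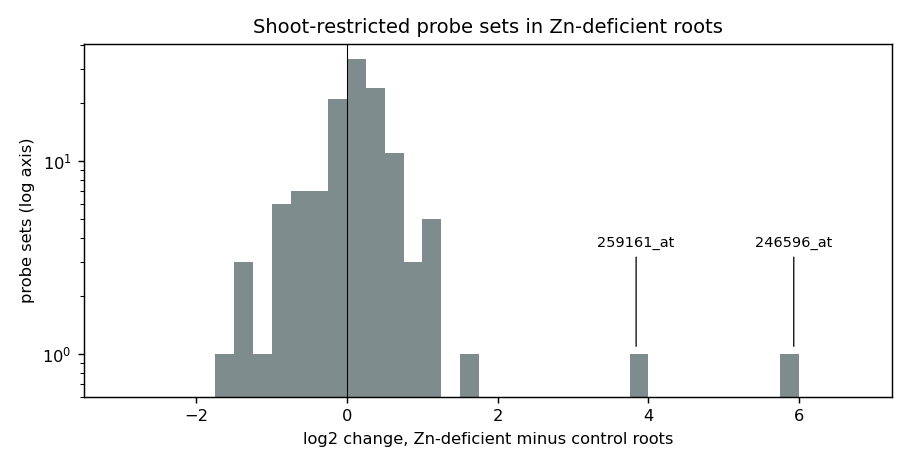
Histogram of the log2 change between Zn-deficient and control roots (horizontal axis) for the 126 shoot-restricted probe sets, with the number of probe sets on a log axis. The median is 0.08, 246596_at lies at 5.93, and 259161_at is drawn at its fitted 3.84, which follows the 8 units added because its control arrays were below background.

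In roots of the hma2 hma4 mutant, grown with Zn, the transcripts raised in Zn-deficient roots gave no call. Of the 18, 15 had enough signal to be tested in that experiment and 0 passed, where 1 probe set of 17059 did (0.00586%), a count that became 6 without wild-type root replicate 2 and 0 without mutant root replicate 1. Their log2 changes lay between -2.49 and 0.61, with 12 of the 15 (80.0%) below zero, against 51.3% of all probe sets, and a median of -0.30 against -0.01. Of the 15, 5 had an unadjusted p under 0.05, all lower in the mutant, against 629 of all probe sets (3.69%), 318 lower and 311 higher. ZIP9 had 93.8 and 82.0 in mutant roots, against 86.6 and 67.5 in wild-type roots. AT1G20380 had 346.1 and 414.7, against 482.5 and 507.1.

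Probe set 251438_s_at stood lowest, at 349.1 and 313.0 in mutant roots, against 2349 and 1526 in wild-type roots, a log2 change of -2.49 (unadjusted p = 0.000678, limma adjusted p = 0.551). Probe set 260462_at had 129.9 and 92.1 in mutant roots, against 215.3 and 213.5 in wild-type roots (unadjusted p = 0.00409), and 259723_at had 1691 and 1363, against 2685 and 2467 (unadjusted p = 0.00272). The response to Zn deficiency minus that to the mutant was tested directly in 1 fit of all 16 arrays. It passed for 21 probe sets (0.123%), and 15 of the 18 were among these. The 18 were chosen on the same Zn-deficient and control root arrays, so this overlap is no separate support. MTP2, AT1G12030 and 262546_at passed here but had too little signal to be tested in the mutant experiment alone. The difference was 6.62 for 251438_s_at (limma adjusted p = 0.00052), 5.81 for 260462_at (adjusted p = 2.03e-06) and 4.03 for ZIP9 (adjusted p = 0.00539). For 264263_at, 264261_at and 247456_at it did not pass. The plants of the 2 experiments differed in age and culture, which cannot be told apart from the condition in this difference. Without Zn-deficient root replicate 2 the count of 21 became 50, and without wild-type root replicate 1 it was 11.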

How the data were processed

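Per the submitters' processing notes, MAS5 signals were computed for each ATH1 array, and version and settings are not named there. The deposited values are log2 signals, and their 2% trimmed mean of 500.04 on each root array shows that the authors scaled arrays to a common level, so a change in total RNA cannot be seen. Values were taken back to signals, 8 units were added and log2 was taken again, which understates changes of dim genes. The 64 control probe sets and those below the 25th percentile of mean signal were left out. Group means of the 8 arrays of the 7-week experiment entered limma 3.58.1 under R 4.3.3 (lmFit, eBayes with intensity trend), adjusted by Benjamini-Hochberg over all 17059 probe sets, two-sided. The method was tested on simulated data. Intervals are 95% intervals of that fit. A fold of a probe set whose control arrays both lay at or below 52.2 is given as "at least", as the geometric mean signal over that level.

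The platform annotation gave 13513 probe sets 1 gene, 503 several and left 8730 unlisted, and 13436 matched the RefSeq TAIR10.1 table. Probe sets with several genes or none are given by ID, and no coordinates or sequences were used. Named are the probe sets past the threshold, members of gene lists, and among probe sets with 1 gene the 14 largest rises and falls with an unadjusted p under 0.05, no overlap and a signal above the median. A gene with several probe sets entered lists with its brightest. Members and lists were chosen with earlier results of these data known. Alternatives covered normalization, added constant, filter, variance trend, arrays in the fit, a replicate block and each array left out.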

Additional observations from a re-analysis of the deposited data

Results flagged for a closer look

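The response to Zn deficiency differed between roots and shoots for 2 probe sets by an interaction test in limma. MTP2 had a fitted log2 change larger in roots by 6.43 (limma adjusted p = 0.00486), with 2 of 2 Zn-deficient arrays above both controls in either organ. Its control arrays were below background in both organs, so this number follows the 8 units added and is no measured size. Probe set 246596_at had a difference of 7.80 (limma adjusted p = 0.00486), with both Zn-deficient arrays above both controls in roots and below both in shoots. Its root control arrays, at 50.2 and 58.0, lay close to background, so the size of that difference is uncertain. Groups of 2 arrays are too small for a test of single outlying arrays.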

How the results depend on the processing

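The count of 18 root calls lay between 16 and 23 with other normalizations, constants, filters, no variance trend or root arrays alone, became 33 with all 16 arrays, and ran from 12 to 29 with 1 array left out, where the lone array is assumed to vary like the other groups. The interaction count of 2 became 5 with quantile normalization and 4 with the stricter filter, and ran from 0 to 16 with 1 array left out. The count of 1 for mutant roots became 6 with the constant at the 30th percentile, 0 with the stricter filter, 3 with median centring and 4 with quantile normalization, and ran from 0 to 6. The count of 21 for the difference from mutant roots ran from 11 to 50. With a replicate block the root count was 20, of which 17 were among the 18, the interaction count 1, the mutant count 1 and the difference count 15. Deviations of same-numbered root replicates correlated at r = -0.115 across probe sets, and crossing the numbers, a step chosen after seeing the data, again gave 20. The causes were not tested. Of 18 called and 66 uncalled probe sets, 0 calls reversed, 7 calls were lost in at least 1 of up to 18 settings, 9 others passed in at least 1, and 18 uncalled changes crossed zero. The size of MTP2 depended on the constant, from 5.47 to 9.67. With 2 arrays a group, changes near the median standard error of 0.322 cannot be called, and far larger ones were missed too. The smallest change called was 2.79, and 264809_at at -2.32 did not pass.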
